A study of Mus musculus with 2 samples.

Results

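Nuclear genes for subunits of the oxidative phosphorylation complexes were examined in granulocyte monocyte progenitors (GMP), the bone marrow cells from which neutrophils and monocytes arise. The genes were chosen by symbol alone: protein-coding genes whose names start with Nduf (followed by a, b, c, s or v), Uqcr, Cox4 to Cox8 or Atp5, together with Sdha, Sdhb, Sdhc and Sdhd. The rule found 93 genes in both libraries, of 21461 nuclear protein-coding genes; 1 further matching identifier was in neither library. Of the 93 genes, 82 encode subunits: 36 of complex I, 4 of complex II, 8 of complex III, 18 of complex IV and 16 of complex V. The other 11 carry a matching name but encode no subunit: 8 Ndufaf assembly factors of complex I, the supercomplex factor Cox7a2l, the Ndufa4 relative Ndufa4l2, and Atp5s. Ndufa4 carries a complex I name but was counted in complex IV, where its protein is now placed.

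Oxidative phosphorylation runs in the inner mitochondrial membrane. Complexes I and II feed electrons from NADH and succinate to coenzyme Q, complex III passes them to cytochrome c, and complex IV passes them to oxygen. Complexes I, III and IV pump protons, and complex V, the ATP synthase, uses the gradient to make ATP. Most subunits are encoded in the nucleus and imported, a minority, none of them in complex II, are encoded in the mitochondrial genome, and several nuclear subunits of complex IV exist as a widely expressed and a tissue-restricted isoform.

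The cells were primary cells from male adult C57BL/6J mice aged 5 to 6 weeks, untreated as far as the labels say. The series holds 1 group of 2 biological replicates that the labels tie to 1 donor record, each library made from 100 ng of total RNA depleted of ribosomal RNA. The libraries held 49473848 expected counts (replicate 1) and 44260902 (replicate 2). No condition was compared and no p-value is given; a value for each library, or a mean ± SD (n = 2), describes these libraries, and their spread may be partly technical. All 9 GMP marker genes were at or above 1 TPM in both libraries, led by Mpo. The 3 B cell and 2 T cell markers had 0 counts, and 3 of 4 muscle markers had 0 counts, with Ckm at 0.25 and 0.60 TPM. Of 4 stromal and endothelial markers only Pecam1, which myeloid cells also express, passed 1 TPM, at 9.16 and 10.9 TPM. None of the 3 erythroid markers reached 1 TPM (Gata1 was highest, at 0.71 and 0.99 TPM), and of 2 megakaryocyte markers Itga2b did, at 2.91 and 3.38 TPM, with Pf4 at 0.48 and 0.86 TPM. Of 2 markers that a GMP gate excludes, Ly6a had 0 counts and Il7r was at 0 and 0.06 TPM. The part of such cells in the levels below was not tested. In bulk RNA, fewer cells of a kind and less RNA per cell cannot be told apart.

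Levels are given in TPM, a read density per transcript length scaled to a fixed total, so that levels of different genes can be set side by side. Where a gene has a pair of values, the first is replicate 1 and the second replicate 2. Of the 93 genes, 86 were at or above 1 TPM in both libraries, where 40.8% of all nuclear protein-coding genes were, and 71 were at or above 10 TPM, where 14.3% of all were. Among the 82 subunits these counts were 76 and 69, and all 6 subunits below 1 TPM in at least 1 library belonged to complex IV. The median subunit stood at 35.7 and 39.8 TPM. The median of all nuclear protein-coding genes was 0.17 and 0.20 TPM, and that of the 8764 genes at or above 1 TPM in both libraries was 6.47 and 7.74 TPM. On log2(TPM + 1), a scale that understates differences among low genes, the median subunit lay 5.03 ± 0.08 (SD, n = 2) above the median of all nuclear protein-coding genes. With both sides limited to genes at or above 1 TPM the gap was 2.43 ± 0.14. Together the 82 genes held 2.18% and 2.25% of the TPM of nuclear protein-coding genes.

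The complexes differed in level, and their order turned on how complex IV was counted. Complex V had medians of 74.0 and 73.3 TPM, complex III 52.4 and 45.1, complex II 28.1 and 41.4, and complex I 24.9 and 32.3. Over all 18 of its genes complex IV had medians of 22.5 and 32.8 TPM, close to complex I. Without its 7 tissue-restricted isoforms, the remaining 11 genes had medians of 96.4 and 122.6 TPM, above those of every other complex in both libraries.

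**Figure D1:**
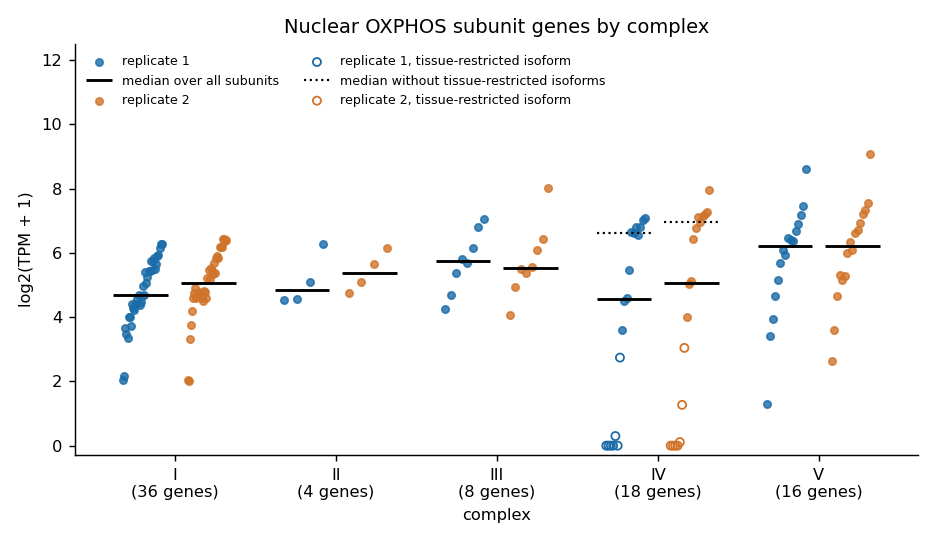
Each point is a nuclear subunit gene in 1 library, as log2(TPM + 1), grouped by complex I to V; solid bars are medians over all genes of the complex, and dotted bars the complex IV medians without open-circle tissue-restricted isoforms. Complex V has the highest solid bars, at 74.0 and 73.3 TPM, and the dotted bars of complex IV, at 96.4 and 122.6 TPM, lie above them.

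As a difference of medians on log2(TPM + 1), complex V lay above complex I by 1.53 and 1.16 (1.34 ± 0.26, SD, n = 2), and above complex II by 1.11 ± 0.39. It lay above complex III by 0.58 ± 0.14. Against complex IV it was higher by 1.40 ± 0.38 with all genes, lower by 0.38 and 0.74 in the libraries (difference of -0.56 ± 0.25) without the tissue-restricted isoforms, and -0.092 ± 0.43 with subunits below 0.1 TPM in both libraries left out, where the libraries differed in sign. The ubiquitous genes of complex IV exceeded complex I by 1.91 and 1.90, a gap larger than the difference between the libraries. Complexes I and II were separated by only 0.14 and 0.33, and the full complex IV set lay 0.14 below complex I in 1 library and 0.03 above it in the other. As shares of nuclear protein-coding TPM, complex V held 0.757% and 0.753%, complex I 0.620% and 0.622%, complex III 0.262% and 0.256%, and complex II 0.0807% and 0.0780%. Complex IV differed more between libraries, with 0.461% and 0.540%.

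**Figure D2:**
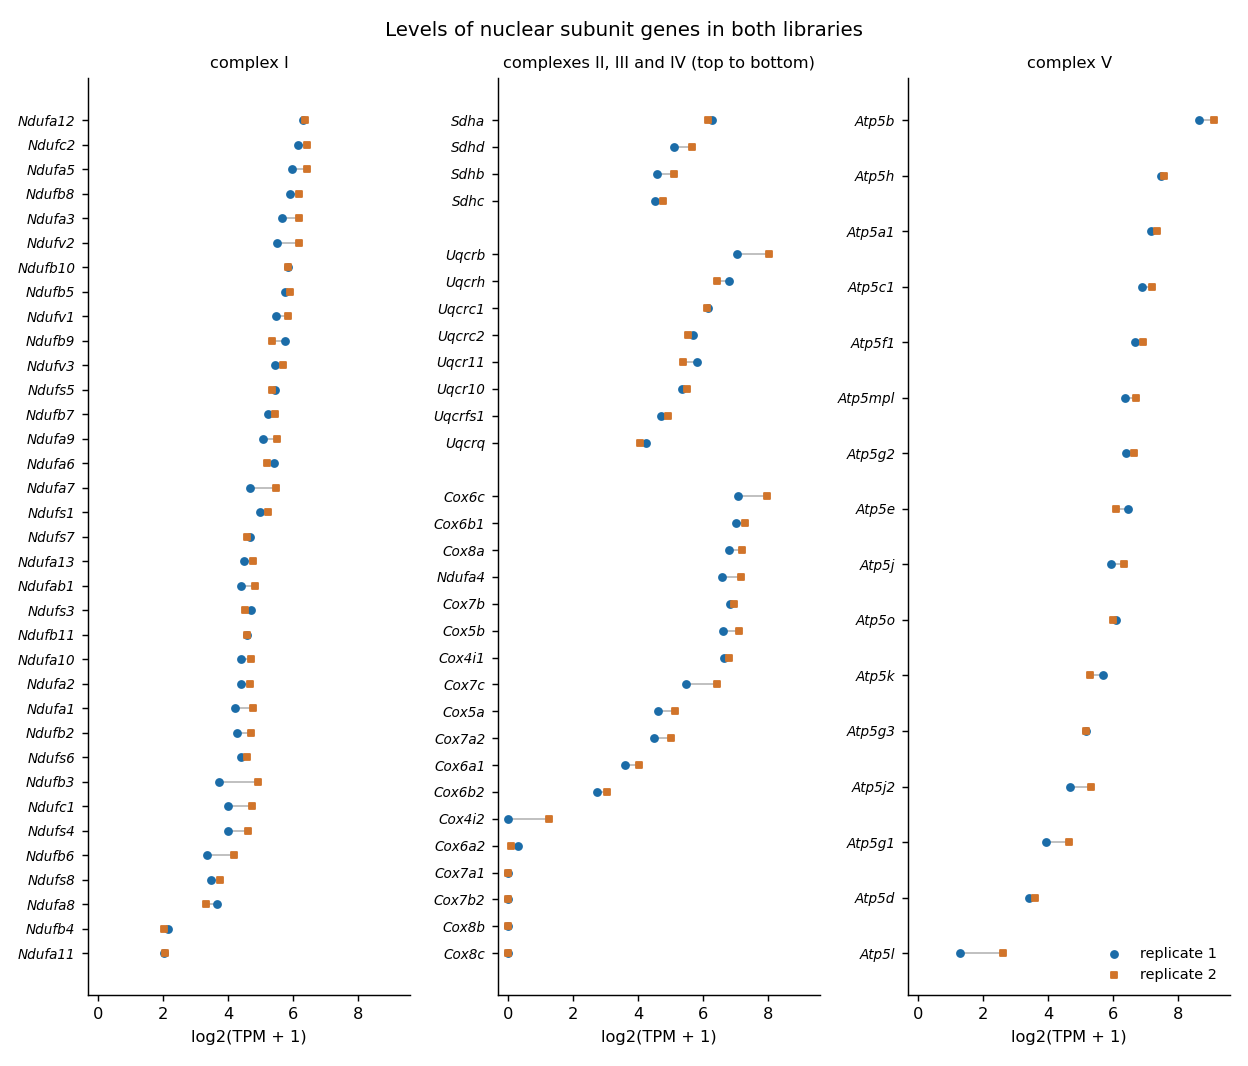
Rows are nuclear subunit genes, with circles for replicate 1 and squares for replicate 2 on log2(TPM + 1), ordered by mean TPM within each complex. Most complex I genes form a continuous slope, complex IV has its widest step between Cox6b2 (5.68 and 7.24 TPM) and Cox4i2 (0 and 1.41 TPM), and Atp5b (393 and 541 TPM) leads all genes shown.

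Complex I is the largest complex and takes electrons from NADH. Its 36 nuclear genes spanned 3.06 to 85.1 TPM, and all were at or above 1 TPM in both libraries. Among the highest were Ndufa12 (77.1 and 81.9 TPM), an accessory subunit of the peripheral arm, and Ndufc2 (70.3 and 84.7 TPM), a small membrane-arm subunit. Their ranges over the libraries overlapped, as did those of 32 of the 35 neighbouring pairs in the order of complex I genes, so the order within this complex is mostly not resolved. In listed TPM a step came at the bottom, between Ndufa8 (11.5 and 8.94 TPM) and the lowest genes, Ndufb4 (3.49 and 3.06 TPM) and Ndufa11 (3.11 and 3.14 TPM), but both low values are uncertain. Ndufb4 shares its coding sequence with a second locus that took most of the counts of the pair (12.6% and 8.86% stayed on Ndufb4). Ndufa11 was counted on a single transcript model of 2661 nt, which the later annotation used for names gives as 545 nt. Its expected counts were 1112 and 858, beside 1136 and 647 for Ndufa8.

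The 7 nuclear core subunits carry the flavin, the iron-sulfur clusters and the entry to the quinone site. Ndufv1, which binds NADH and flavin, was at 43.3 and 56.0 TPM, and its iron-sulfur partner Ndufv2 at 44.5 and 71.4 TPM. Ndufs1, which holds the next clusters of the electron path, was at 30.4 and 36.3 TPM. Ndufs3 (24.98 and 21.9 TPM) and Ndufs7 (24.4 and 23.1 TPM), which lies on the path to the quinone, both stood below Ndufs1 in both libraries. Ndufs8, an iron-sulfur subunit of the same arm, was the lowest core gene over all transcripts, at 10.1 and 12.6 TPM. On protein-coding transcripts alone Ndufs7 was the lowest, at 4.97 and 10.55 TPM, with Ndufs8 unchanged. The core median exceeded that of the 29 supernumerary subunits, which surround the core and have no redox centre, by 0.40 and 0.30 on log2(TPM + 1) (0.35 ± 0.07, SD, n = 2). On protein-coding transcripts alone the order was reversed, with the core median below the supernumerary median in both libraries.

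The 8 Ndufaf genes, whose products build complex I and are not part of it, were at 2.96 to 15.4 TPM. Their medians were 4.16 and 6.31 TPM, and the complex I subunits lay above them by 2.26 ± 0.10 (SD, n = 2) on log2(TPM + 1). The highest was Ndufaf2, at 13.7 and 15.4 TPM, and the lowest was Ndufaf7, at 2.96 and 3.58 TPM. All 8 were at or above 1 TPM in both libraries, so the assembly factors were detected throughout at a level below most of the subunits they help to assemble.

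Complex II, succinate dehydrogenase, is the only complex encoded wholly in the nucleus and is also an enzyme of the tricarboxylic acid cycle. Sdha, its flavin-binding subunit, was at 75.7 and 69.4 TPM. Sdhb, the iron-sulfur subunit, was at 22.9 and 33.5 TPM, and the membrane anchors were at 22.0 and 26.0 TPM (Sdhc) and 33.3 and 49.4 TPM (Sdhd). Sdha was above the other 3 genes in both libraries, with no overlap. On protein-coding transcripts alone Sdha was at 38.3 and 47.7 TPM, above Sdhd (33.3 and 49.4 TPM) in replicate 1 and below it in replicate 2. The ranges of Sdhd and Sdhb met, as did those of Sdhb and Sdhc.

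Complex III passes electrons from coenzyme Q to cytochrome c. Its highest gene, Uqcrb, encodes a small quinone-side subunit and was at 130.6 and 256.7 TPM. Uqcrh, the hinge subunit that contacts the cytochrome c1 side, followed at 110.4 and 84.7 TPM. Of the large core proteins, Uqcrc1 (70.0 and 67.7 TPM) was above Uqcrc2 (50.3 and 45.7 TPM) in both libraries. The small subunit Uqcr11 (54.5 and 40.5 TPM) overlapped in range with Uqcrc2, and Uqcr10 was at 40.1 and 44.5 TPM. Uqcrfs1, the Rieske iron-sulfur protein that carries the electron, was below all of these at 25.04 and 29.3 TPM, and Uqcrq was lowest at 18.1 and 15.7 TPM. Cyc1, the nuclear cytochrome c1 of the same complex whose symbol the rule does not cover, was at 19.6 TPM in both libraries, close to Uqcrq.

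Complex IV reduces oxygen, and its nuclear subunits surround a catalytic core encoded in mitochondrial DNA. Of its 18 genes, 7 formed an upper tier between 93.9 and 249.5 TPM. Cox6c was highest at 134.1 and 249.5 TPM, followed by Cox6b1, a subunit on the cytochrome c side, at 127.9 and 153.1 TPM, and Cox8a at 110.2 and 145.9 TPM. Ndufa4 (93.9 and 141.3 TPM), Cox7b (111.5 and 122.6 TPM), Cox5b (96.4 and 137.1 TPM) and Cox4i1 (99.5 and 108.7 TPM), the largest nuclear subunit, followed, each overlapping in range with its neighbour in that order. Cox5a, which binds tightly to Cox4i1 in the enzyme, was lower at 23.4 and 34.1 TPM, and Cox6a1 was the lowest ubiquitous gene at 11.2 and 15.2 TPM.

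In each of the 6 sets of complex IV isoforms the form found in most tissues exceeded the forms known from muscle, lung or testis, and 6 of these 7 restricted forms were below 1 TPM in at least 1 library. Cox7a1 and Cox8b, the heart and skeletal muscle forms, and Cox7b2 and Cox8c, known from testis, had 0 counts in both libraries. For Cox7a1 an observed 0 leaves room for up to 3 counts, or 0.111 and 0.175 TPM, by counting error alone. Against that limit Cox7a2 (21.6 and 31.4 TPM) was at least 194-fold and at least 179-fold higher than Cox7a1. Cox7b was at least 1955-fold and 1502-fold higher than Cox7b2, and Cox8a at least 981-fold and 823-fold higher than Cox8b, each against the same limit of 3 counts per library. Cox6a2, the muscle form of Cox6a, had 16 and 4 counts (0.23 and 0.08 TPM), beside 641 and 606 for Cox6a1.

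Partial exceptions were Cox6b2 and Cox4i2. Cox6b2, best known from testis, had 220 and 218 counts, or 5.68 and 7.24 TPM. This was 4.25% and 4.51% of the summed TPM of Cox6b1 and Cox6b2, and it was the only tissue-restricted isoform above 1 TPM in both libraries. Cox4i2, the lung form that is induced by low oxygen, had 0 counts in replicate 1 and 81 counts (1.41 TPM) in replicate 2, so its detection rests on replicate 2 alone. Ndufa4l2, a hypoxia-induced relative of Ndufa4, had 2 counts and 0 counts. Cox7a2l, which joins complexes III and IV into supercomplexes and of which C57BL/6J mice carry a shortened form, was at 45.3 and 45.8 TPM, above Cox7a2 in both libraries.

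**Figure D3:**
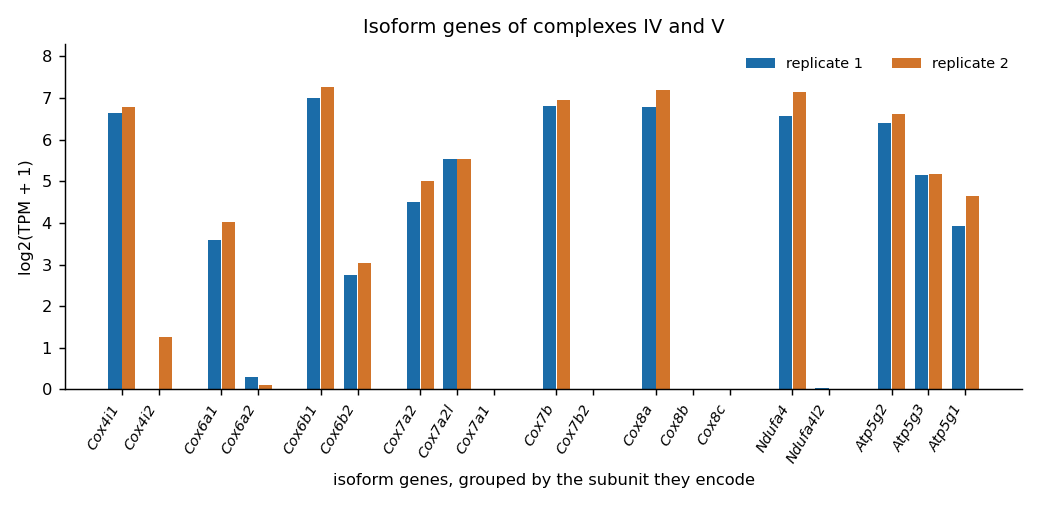
Bars give log2(TPM + 1) of each isoform gene in replicate 1 and replicate 2, grouped by subunit family. The ubiquitous complex IV genes stand at 11.2 TPM or more, Cox6b2 at 5.68 and 7.24 TPM, Cox4i2 has a bar in replicate 2 only, and the 3 c ring genes Atp5g2, Atp5g3 and Atp5g1 are all expressed.

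Complex V is the ATP synthase, a rotary enzyme with a catalytic head, a central stalk, a peripheral stalk and a membrane ring. The catalytic beta subunit Atp5b (chr10:128083273-128090391, mm10) was the highest of all 82 genes, at 393 and 541 TPM. Its partner in the head, the alpha subunit Atp5a1, was at 142.4 and 161.1 TPM, and Atp5c1, the gamma shaft of the central stalk, at 117.2 and 146.5 TPM. The other central stalk genes were lower: Atp5e at 87.0 and 66.4 TPM, and Atp5d, the delta subunit, at 9.74 and 11.2 TPM. The genes of the head and central stalk thus ranged from 9.74 to 541 TPM. On protein-coding transcripts alone Atp5b stood at 127.6 and 164.3 TPM and Atp5a1 at 139.7 and 158.2 TPM, so that Atp5b was below Atp5a1 in replicate 1 and above it in replicate 2. On that count Atp5b was not the highest gene: Atp5h (161.9 and 176.5 TPM), Cox6c (132.3 and 247.2 TPM) and Uqcrb (129.4 and 254.2 TPM) were above it in both libraries.

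The peripheral stalk genes, which hold the head still, were more even in TPM over all transcripts. Atp5h was at 175.7 and 188.6 TPM, Atp5f1 at 101.6 and 119.6 TPM, Atp5j at 59.8 and 80.2 TPM and Atp5o, the stalk's contact with the head, at 67.2 and 62.7 TPM. On protein-coding transcripts alone these stalk genes were less even. They spanned 13.7 (Atp5f1) to 161.9 TPM (Atp5h) in replicate 1, and 29.98 (Atp5j) to 176.5 TPM (Atp5h) in replicate 2. In the membrane part, Atp5mpl was at 80.8 and 103.2 TPM, Atp5k at 50.7 and 38.0 TPM, and Atp5j2 at 24.5 and 39.0 TPM. Atp5l, the g subunit found where synthase dimers meet, was the lowest complex V gene at 1.47 and 5.15 TPM, but nearly all counts of its sequence were placed on a processed copy elsewhere in the genome. Atp5s, which carries the family name but is not a subunit, was at 1.85 and 2.43 TPM.

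The proton-driven c ring is built from a single mature protein encoded by 3 genes that differ in their import sequences. Atp5g2 supplied most of the message, at 83.1 and 97.8 TPM, which was 63.0% and 62.4% of the summed TPM of the 3 genes. Atp5g3 followed at 34.6 and 34.97 TPM (26.2% and 22.3%), and Atp5g1 was lowest at 14.2 and 24.0 TPM (10.8% and 15.3%). The order was the same in both libraries, and no ranges overlapped.

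Small, highly expressed nuclear genes of mitochondria have left many processed copies in the mouse genome, and reads from identical stretches cannot be assigned to a single locus. Of the 82 subunit genes, 30 had at least 1 copy in the files with 90% identity or more over at least 50% of the coding sequence. With the copy of Cox7a2l included there were 59 such copies, of which 57 are annotated as pseudogenes. How many other nuclear protein-coding genes have such copies was not counted, so these counts do not set the subunits apart. For 9 subunits the gene itself kept less than 95% of the summed counts in at least 1 library, and for Atp5l and Ndufb4 it kept less than 50% in both. The coding stretches below are shown because they are identical in gene and copy, so that no read lying inside them can tell the loci apart. Each starts at the A of the start codon and runs to position 150.
Atp5l and Gm10221: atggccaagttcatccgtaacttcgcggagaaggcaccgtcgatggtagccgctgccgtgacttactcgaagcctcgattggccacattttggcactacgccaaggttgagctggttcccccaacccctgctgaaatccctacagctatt
Ndufb4 and Ndufb4c: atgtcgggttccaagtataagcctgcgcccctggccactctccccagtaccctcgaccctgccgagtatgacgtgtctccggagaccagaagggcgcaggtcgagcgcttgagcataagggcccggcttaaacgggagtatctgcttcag

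Atp5l lies at chr9:44912557-44920742 and its copy Gm10221 at chr5:24581554-24581862 (mm10, minus strand), where the 309 nt of coding sequence before the stop codon are repeated with 0 differences. Atp5l received 70.9 and 171.3 expected counts, whereas Gm10221, annotated as a processed pseudogene, received 4618.5 and 3211.9. Gene and copies together came to 132.8 and 143.6 TPM, and Atp5l kept 1.51% and 5.04% of the counts. Ndufb4 lies at chr16:37647170-37654453 and Ndufb4c at chr15:73809507-73809896 (mm10, minus strand), with 0 differences over 390 nt including the stop codon. Ndufb4 received 399.5 and 258.8 counts, or 12.6% and 8.86% of the pair, and Ndufb4c 2761.5 and 2660.2. The summed level of the pair was 93.4 and 136.6 TPM. Sequences and positions are from GENCODE M21, while counts were made on GENCODE M4 models, which can differ in length. Atp5l was counted on a model of 511 nt and is 544 nt in M21. Bases outside the stated stretches were not compared. How much of each sum came from the gene and how much from the copy cannot be told apart here, so the low values of Atp5l and Ndufb4 are uncertain.

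Other copies differ from their gene at a few bases. The pairs below are shown with the differing bases in capitals, and positions count from 1 at the A of the start codon.
Ndufa12: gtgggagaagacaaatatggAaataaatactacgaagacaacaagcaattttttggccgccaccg
Gm15920: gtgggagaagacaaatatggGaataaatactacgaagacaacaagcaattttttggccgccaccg
Ndufs5: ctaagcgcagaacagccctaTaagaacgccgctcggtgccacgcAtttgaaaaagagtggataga
BC002163: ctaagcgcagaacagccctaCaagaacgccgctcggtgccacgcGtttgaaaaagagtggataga

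Gm15920 (chr5:130188395-130188796, mm10) differs from Ndufa12 by A147G and T426C over 402 nt, and Ndufa12 kept 72.7% and 78.6% of the summed counts. BC002163 (chr16:42955631-42955949) differs from Ndufs5 by T81C and A105G over 319 nt, and Ndufs5 kept 94.1% and 96.7%. Atp5g1, which differs from Gm10039 by G385A, kept 82.8% and 96.8%, so that its share of the c ring message is also uncertain. Cox7c kept 92.8% and 90.3% of its counts, yet its copy Gm12338, only 192 nt long, was listed at 30.9 and 99.4 TPM beside 43.0 and 85.0 TPM for Cox7c. With all copies added to their genes, the difference between complexes V and III widened from 0.58 to 0.83 on log2(TPM + 1); the complex V medians became 83.9 and 91.7 TPM and those of complex III 52.6 and 45.1 TPM.

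**Figure D4:**
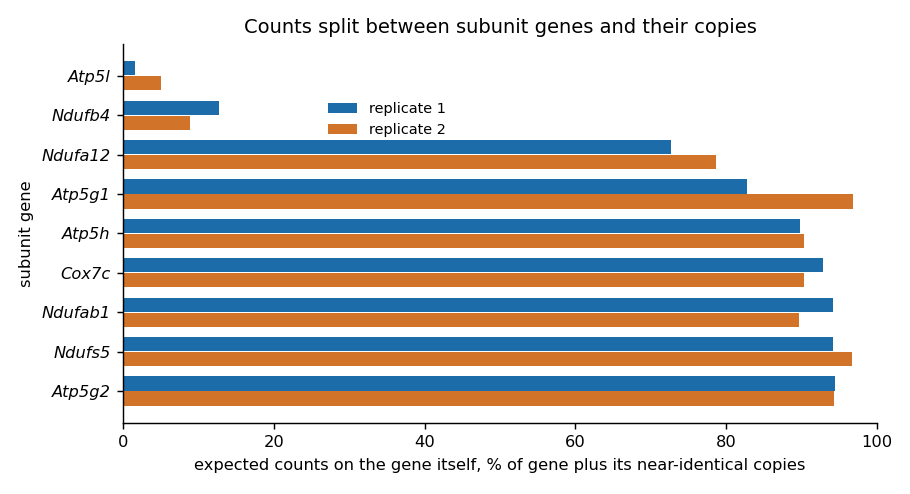
Bars give the percent of expected counts placed on the gene itself, of the gene plus its near-identical copies, for the 9 subunit genes below 95% in at least 1 library. Atp5l (1.51% and 5.04%) and Ndufb4 (12.6% and 8.86%) stand apart from Ndufa12 and the rest, which kept more than 70%.

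The deposited transcript tables split each gene's TPM over annotated transcripts, some of them without a coding sequence. The counts here cover subunits only, and the same shares over other genes were not worked out. Of the 78 subunits with any TPM, 59 had at least 80% on transcripts classed as protein-coding in both libraries, and 5 had under 50% in both. Among those were Atp5b (32.5% and 30.4%), Ndufs7 (20.4% and 45.8%), Ndufa5 (26.0% and 23.2%) and Atp5j (44.8% and 37.4%). The leading transcript of Atp5b was a processed transcript of 478 nt, and that of Atp5j a retained-intron transcript of 526 nt. The split differed most between libraries for Atp5f1, whose protein-coding share was 13.5% and 56.4% while its gene level was 101.6 and 119.6 TPM. Restricted to protein-coding transcripts, the complex medians were 20.6 and 26.2 TPM for complex I, 46.4 and 40.2 TPM for complex III, and 48.3 and 64.2 TPM for complex V. Complex IV without tissue-restricted isoforms changed little, at 94.7 and 117.5 TPM, and was the highest of the complexes in both libraries.

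**Figure D5:**
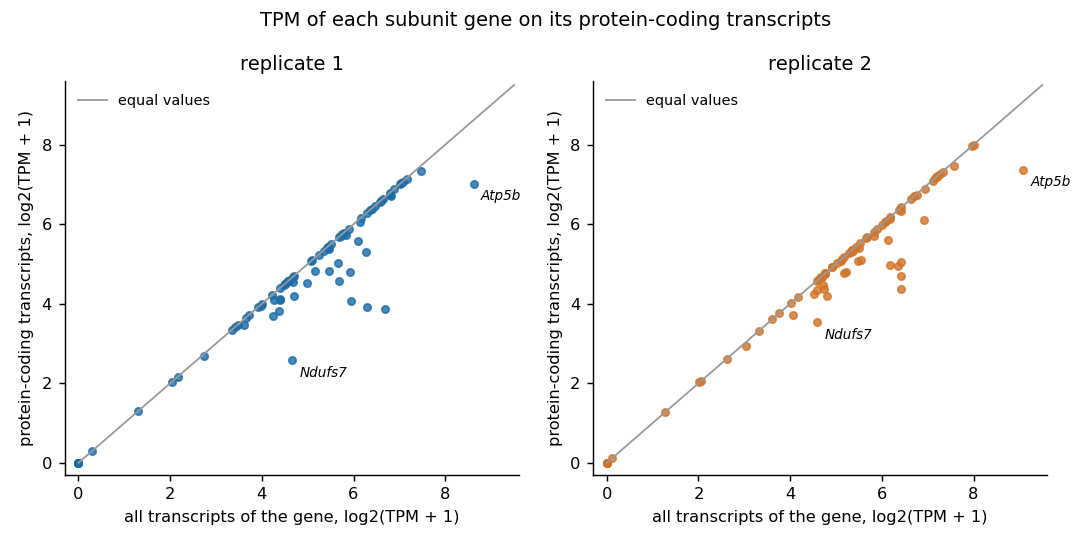
Each point is a subunit gene, with the TPM of all its transcripts on the horizontal and of its protein-coding transcripts on the vertical axis, both as log2(TPM + 1), for each library. Points on the line have all TPM on protein-coding transcripts; Atp5b (32.5% and 30.4%) and Ndufs7 (20.4% and 45.8%) fall well below it.

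Between the libraries the subunits differed about as much as other genes, which were not matched to them in level. On log2 CPM, counts scaled to the normalised library total, 76 of the 82 subunits passed the filter on low counts, which removed 6 tissue-restricted isoforms. Among those removed was Cox4i2, with 0 and 81 counts, so this difference between libraries is not in the ratios given here. Their median log2 ratio of replicate 2 to replicate 1 was -0.013, and the median size of the ratio in either direction was 0.19, against 0.23 for all 11143 nuclear protein-coding genes kept. Of the 76, 10 were more than 1.5-fold apart, a background of 16.7% among all such genes; 8 were lower in replicate 2 (background 8.96%) and 2 higher (background 7.75%). These are differences between 2 single libraries, with no replicate check.

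The subunits furthest below their replicate 1 level were Atp5k (log2 ratio of -0.96), Uqcr11 (-0.87), Atp5e (-0.85), Uqcrh (-0.78) and the complex I subunit Ndufb9 (-0.76). The subunits furthest above were Atp5l (1.36), whose counts are the uncertain ones described above, Ndufb3 (0.91), Uqcrb (0.57), Cox6c (0.47) and Ndufb6 (0.44). In TPM the same genes looked different: the median ratio on log2(TPM + 1) was 0.26, against 0.19 for all nuclear protein-coding genes kept. Of the 76, 59 were higher in replicate 2 (background 73.9%), 12 were more than 1.5-fold higher (background 9.72%) and 0 were more than 1.5-fold lower (background 1.83%). Beside this, nuclear protein-coding genes together made up 19.1% and 22.8% of all TPM. Fragment lengths implied by the files averaged 178.1 and 214.3 nt, and the median subunit gene was 681 nt long against 2376 nt for nuclear protein-coding genes at or above 1 TPM. The 12 subunits shorter than 500 nt had a median log2 ratio of -0.08 in CPM and 0.33 in TPM, and the 64 longer ones -0.013 and 0.25. The part of length or fragment size in these ratios was not tested.

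Nuclear respiratory factor 1 (NRF1), the ETS factor GABP and YY1 are known regulators of nuclear respiratory genes, so their binding motifs were searched in promoter windows of 300 nt (250 before to 50 after the start) from RefSeq, build GRCm38.p6. Of the 82 subunit genes, 66 had such a window. The NRF1 motif (GCGCA, any base, GCGC, on either strand) was in 16 of the 66 windows (24.2%), in 6.89% of the 16267 windows of all nuclear protein-coding genes, and in 12.7% of the 7048 windows of genes at or above 1 TPM in both libraries. The YY1 motif AAGATGGC, or GCCATCTT on the other strand, was in 8 windows (12.1%), against 3.34% and 5.87%. All 8 YY1 matches, in Ndufa3, Ndufa9, Ndufb8, Ndufc1, Ndufs4, Ndufs6, Ndufs7 and Atp5j2, lay downstream of the start, between positions 23 and 39. Of all windows with a match, 53.0% had it downstream, and 59.2% of those of genes at or above 1 TPM did. The ETS motif CCGGAAGT, or ACTTCCGG on the other strand, was in 5 windows (7.58%), between the 5.69% of all genes and the 10.9% of genes at or above 1 TPM. In no subunit window did matches of different motifs overlap. A match describes these letters only and is not a binding site.

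By complex, NRF1 matches were in 7 of 32 windows of complex I, 2 of 3 of complex II, 1 of 5 of complex III, 1 of 13 of complex IV and 5 of 13 of complex V. None of the 3 motifs was in the 4 windows of tissue-restricted complex IV isoforms. At least 1 of the motifs was in 14.7% of all windows and in 27.0% of those of genes at or above 1 TPM. With 4 windows, finding none does not set these isoforms apart from other genes. The stretches below, upstream of the RefSeq start used and of the GENCODE gene, show the NRF1 motif of a gene from complexes II, IV and V and the ETS motif of a complex III gene, with matches in capitals. They are written 5′ to 3′ on the minus strand, on which all 4 genes lie.
Sdha, chr13:74350281-74350353: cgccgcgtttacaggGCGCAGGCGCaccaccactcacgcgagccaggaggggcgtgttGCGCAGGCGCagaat
Cox6a1, chr5:115349051-115349135: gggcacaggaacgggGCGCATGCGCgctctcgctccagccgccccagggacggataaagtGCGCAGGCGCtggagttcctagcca
Atp5h, chr11:115420036-115420075: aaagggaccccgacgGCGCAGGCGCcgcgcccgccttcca
Uqcr11, chr10:80406865-80406902: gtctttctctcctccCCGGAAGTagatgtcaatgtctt

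The whole window of Sdha holds 3 NRF1 matches, of which 2 are in the stretch shown, and that of Cox6a1 holds 2.

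Genes that work with the complexes but fall outside the symbol rule give the setting for these levels. Cycs, the cytochrome c that links complexes III and IV, was at 26.9 and 38.6 TPM. Atpif1, the inhibitor of complex V, was at 246 and 347 TPM, above every complex V subunit except Atp5b. Usmg5, a small membrane subunit of complex V under another name, was at 78.7 and 157.8 TPM. The 13 tricarboxylic acid cycle genes were all at or above 1 TPM, with medians of 23.7 and 30.7 TPM, close to complex I, from Idh3a (16.7 and 18.0 TPM) to Idh3g (47.2 and 50.1 TPM). Of 4 carriers for adenine nucleotides and phosphate, Slc25a5 led at 170.2 and 238.3 TPM and the testis form Slc25a31 had 0 counts.

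The genes that build the complexes were lower. The 37 assembly factors outside the rule had medians of 5.69 and 6.92 TPM, with 33 at or above 1 TPM in both libraries, from Pet117 with 0 counts to the copper chaperone Cox17 at 36.3 and 61.2 TPM. The 13 coenzyme Q synthesis genes had medians of 4.00 and 3.31 TPM, with 12 at or above 1 TPM, from Coq10a (0.78 and 0.44 TPM) to Coq9 (11.4 and 11.2 TPM). Of 12 regulators, 10 were at or above 1 TPM. Tfam (18.0 and 17.3 TPM), which packages mitochondrial DNA, was highest in replicate 1, and Yy1 (14.5 and 17.5 TPM) in replicate 2. Gabpa (13.6 and 15.9 TPM) and Nrf1 (9.61 and 11.2 TPM) followed. The coactivator Ppargc1a had 1 and 0 counts, and its relative Ppargc1b was at 0.69 and 0.59 TPM.

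The 13 subunits of the mitochondrial genome had medians of 114.1 and 176.7 TPM, above the nuclear subunits. Of these, 11 were at or above 1 TPM in both libraries, led by mt-Atp8 (3501 and 6430 TPM) and mt-Co1 (2173 and 3156 TPM). The lead of mt-Atp8 holds in TPM only. Its expected counts were 20481 and 17744, beside 428368 and 469686 for mt-Co1. mt-Nd4l was listed at 0 and at 37.0 TPM, and mt-Atp6 at 66.1 TPM and at 0, so neither can be read as absent.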

How the data were processed

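Total RNA came from 2 libraries of 1 group of granulocyte monocyte progenitors, made with a ScriptSeq low-input kit per the labels; a size range of 200 to 712 (replicate 1) and 200 to 1000 (replicate 2) carries no unit. Per the file headers, each table holds expected counts, TPM and FPKM for genes and transcripts, with posterior means and interval bounds. Per the file headers, transcript tables also hold the percent of a gene's expression on each transcript. The assembly is mm10 and the annotation GENCODE M4, per the deposited metadata; the aligner, the quantifier and any use of strand were not given in the sources used here. Estimated counts split shared reads between loci, and TPM of short genes depends on fragment length.

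Names and transcript classes came from GENCODE M21 on the same assembly, matched by identifier. The members, lists and rule for named genes were chosen with earlier results of these data known. Named are the 3 highest and 3 lowest subunits of each complex, core subunits, isoform sets, the 5 with the largest ratio between libraries in each direction, and genes at 0; of context lists, only the highest, the lowest and some others are printed. A gene that the rule would name is not reported here by name. Genes singled out for copies, transcript classes or promoter motifs were chosen after their values were seen. Levels used log2(TPM + 1). Ratios used log2 CPM (prior count 2) of expected counts rounded to whole numbers, with TMM scaling after filterByExpr in edgeR 4.0.16 (R 4.3.3), tested on simulated data. Copies were found with BLAST 2.17.0 (at least 90% identity over at least 100 nt and 50% of the coding sequence), from each gene's leading protein-coding transcript. The search used GENCODE M21 transcript sequences. Alternatives were other pseudocounts, thresholds, units, scalings (DESeq2 1.42.0), summaries, members and each library alone. With 2 libraries of 1 group no test was run. Limits from 3 counts cover counting error only.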

Additional observations from a re-analysis of the deposited data

How the results depend on the processing

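No paired analysis was possible because the series holds 1 group. Differences of complex medians are on log2(TPM + 1). Of 84 alternatives, 62 stayed within a set limit, 18 moved further and 4 changed sign. The limit was the spread between libraries for contrasts, 1.5 times for counts, and the same rounded value for the median ratio. A contrast from 1 library alone always lies within that spread. Leaving out tissue-restricted or undetected subunits cannot move contrasts among complexes I, II, III and V, which hold none. The 62 therefore does not measure how robust the results are. With means in place of medians, complex V minus I was 1.00, V minus II 0.63 and V minus III 0.16 (0.04 and 0.29 in the libraries). V minus IV was then 1.89 and subunits minus all nuclear protein-coding genes 3.59. Per annotated length these were 0.71 for V minus II, 0.44 for V minus III and 6.32 for subunits minus all genes. V minus III was 0.37 on protein-coding transcripts (0.07 and 0.66 in the libraries) and 0.83 with copies added. V minus IV changed sign, to -0.092 without subunits below 0.1 TPM and to -0.56 without tissue-restricted isoforms. Subunits minus all genes was 7.05 with a pseudocount of 0.1, 6.10 on FPKM, 4.91 on posterior mean TPM, 6.59 on rescaled TPM, 5.15 without subunits below 0.1 TPM, 4.70 with every symbol of the rule, 5.21 without tissue-restricted isoforms and 4.72 on protein-coding transcripts. The median ratio between libraries was near 0 and changed sign, to 0.031 on total counts and 0.26 on log2(TPM + 1). The alternatives without tissue-restricted isoforms, on protein-coding transcripts and with copies added were chosen after seeing the data. With each library alone the ranges were 1.16 to 1.53 for V minus I, 0.83 to 1.38 for V minus II, 0.49 to 0.68 for V minus III, 1.13 to 1.67 for V minus IV, 4.97 to 5.09 for subunits minus all genes, and 86 to 87 genes at or above 1 TPM. The cause of these shifts was not tested. Depth does not resolve isoforms below 3 counts.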
